A study of Mus musculus with 24 samples.

Results

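The angiopoietins and angiopoietin-like proteins are secreted proteins that share a fibrinogen-like end. The 6 genes described here were Angpt1, Angpt2, Angpt4, Angptl2, Angptl4 and Angptl7, taken with every probe that the array annotation assigns to them. They were chosen by name as a family after differences between knockout and control arrays were known, so their fold changes are given as a description. Where a member probe is said to lie past the threshold of the fit over all probes, this places its value and is no evidence for it. The annotation maps 10 of the 45281 probes on the array to 5 of the 6 genes: 3 probes to Angpt1, 2 each to Angpt2, Angptl4 and Angptl7, and 1 to Angpt4. Angptl2 was not analysed here, because the annotation used maps no probe to it.

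Subcutaneous adipose tissue of C57BL/6J mice was profiled on 24 Illumina BeadChip arrays, in 8 groups of 3. Adn-C/EBPα-/- mice were set against control littermates after 3 days on doxycycline chow, after 3 days on a high fat diet with doxycycline, and after 1 month on that high fat diet. Adn-PPARγ-/- mice were set against control littermates after 3 days on doxycycline chow. The age given is 10 weeks for the 3 day groups and 14 weeks for both 1 month groups. The series text names doxycycline for the knockout mice; the titles give controls the diet and time of their knockouts, without a word on doxycycline. The study asked for the transcription in mature fat cells that belongs to C/EBPα and to PPARγ, both of them transcription factors that drive fat cell formation. The labels do not expand "Adn", and under genotype they carry the knockout for control arrays as well, so groups were taken from the titles. They are silent on whether the 3 replicates came from different animals, so the spread between them may be technical. RNA came from whole tissue, in which fewer cells of a type and less RNA per cell cannot be told apart.

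Angpt1 and Angpt2 bind Tie2 (encoded by Tek), a receptor kinase of endothelial cells: Angpt1 activates it and steadies vessels, and Angpt2 acts as a partial agonist or antagonist that loosens them. Angpt4 is a further Tie2 ligand. The angiopoietin-like proteins do not bind Tie2. Angptl4, made in large amounts by fat and induced by fasting and by PPAR agonists, inactivates lipoprotein lipase, the enzyme that releases fatty acids from circulating triglyceride. Angptl7 is known mainly from the cornea and the drainage tissue of the eye.

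Promoter sequences from RefSeq (GRCm38.p6; 250 bases before to 50 after the gene start, 5′ to 3′ on the strand of the gene) are shown for the 2 genes whose knockout and control arrays lay farthest apart. The Angpt4 window is chr2:151910957-151911256 on the plus strand and the Angptl7 window chr4:148500413-148500712 on the minus strand. Capitals mark matches, on either strand, to 3 motifs that do not overlap in these windows: TATAAA (the TATA box), TTNNGNAA (a short form of the C/EBP site) and AGGTCA (the half-site bound by PPARγ with its partner RXR).
Angpt4: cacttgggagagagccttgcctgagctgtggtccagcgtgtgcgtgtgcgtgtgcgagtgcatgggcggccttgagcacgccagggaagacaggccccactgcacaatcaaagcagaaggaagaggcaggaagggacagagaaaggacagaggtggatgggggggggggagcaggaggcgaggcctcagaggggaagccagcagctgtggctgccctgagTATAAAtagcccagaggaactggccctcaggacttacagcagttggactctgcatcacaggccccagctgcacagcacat
Angptl7: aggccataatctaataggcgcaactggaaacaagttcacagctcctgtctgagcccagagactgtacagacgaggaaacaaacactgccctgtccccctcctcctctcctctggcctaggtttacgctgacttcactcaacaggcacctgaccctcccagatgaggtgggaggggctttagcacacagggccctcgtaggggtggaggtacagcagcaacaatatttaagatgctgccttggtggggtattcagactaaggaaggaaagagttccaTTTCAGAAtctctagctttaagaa
The Angpt4 window held TATAAA at -30 to -25 from the gene start, and the Angptl7 window held TTNNGNAA on the strand opposite to the gene at 27 to 34 bases past its start. AGGTCA had no match in either window. Of 32851 mouse promoters of the same length, 13.6% held TATAAA, 40.7% TTNNGNAA and 16.3% AGGTCA, so these matches are a description of the letters only.

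The deposited values are linear intensities. Judged from the values, the authors normalized them separately in 4 sets of 6 arrays, 1 knockout group plus the matching controls in each. Median intensities were 110.2 to 150.5 per set, little above an estimated background of 103.6 to 132.3, and between 51.6% and 57.0% of probes were above background. A probe was counted as above background on an array when it exceeded the limit that 5% of background probes would pass, which was 144 for the chow C/EBPα arrays, 120.4 for the PPARγ arrays, and 109.5 at 3 days and 114.6 at 1 month of high fat diet. Fold changes below are knockout over control, after background removal and addition of an offset of 16, with the standard error of a limma fit over 30257 probes, and n = 3 arrays per group. The offset shrinks the fold changes of dim probes. A probe passed the test at a Benjamini-Hochberg adjusted p under 0.05 over all 30257 probes. The Cebpa probe ILMN_1247147 was lower in the C/EBPα knockouts, by a log2 fold change of -1.0 ± 0.14 on chow, -2.08 ± 0.14 at 3 days and -3.48 ± 0.14 at 1 month of high fat diet, and in the PPARγ knockout (-1.38 ± 0.14). The 3 probes of Pparg pointed both ways in its own knockout: ILMN_1221594 was lower (-1.08 ± 0.18), while ILMN_1221060 (1.10 ± 0.12) and ILMN_1221893 (1.24 ± 0.15) were higher. Probe positions were not used, and a probe outside the deleted part does not check the deletion.

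Of the 10 member probes, 8 passed the filter on dim probes (above background on at least 3 of the 24 arrays) and 2, both of Angpt1, did not. Called higher were 1 of the 8 in the chow C/EBPα comparison (Angpt4), 3 of the 8 in the PPARγ comparison (Angpt4 and both Angptl7 probes), 1 of the 8 at 3 days and 1 of the 8 at 1 month of high fat diet (Angpt4 in both). No member probe was called lower. Over all probes tested, 0.42% were called higher and 0.443% lower in the chow C/EBPα comparison, 2.79% higher and 3.57% lower in the PPARγ comparison, 0.407% higher and 0.992% lower at 3 days of high fat diet, and 6.69% higher and 6.52% lower at 1 month. Since the genes were selected on these contrasts, nothing is read from their counts.

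Angpt4, the Tie2 ligand, was brighter in every knockout array than in every control array of its set. How many of all probes separate in this way was not counted, so nothing is read from it, here or for the other members. In the chow C/EBPα set its single probe, ILMN_2745027, read 228, 213 and 219 in knockouts, against 151, 170.1 and 165 in controls, with all 6 arrays above background. The PPARγ knockout arrays read 192, 239 and 257, against 119, 117 and 119 in their controls, all 3 of which were at background. At 3 days of high fat diet the readings were 158, 213 and 144 in C/EBPα knockouts, against 117, 109.7 and 113 in controls, which lay just above the background limit. After 1 month of high fat diet the knockouts read 551, 888 and 609, against 108, 122 and 115 in controls, of which 2 were above background. The 1 month knockouts were the brightest of the 8 groups and stood apart from all others.

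**Figure D1:**
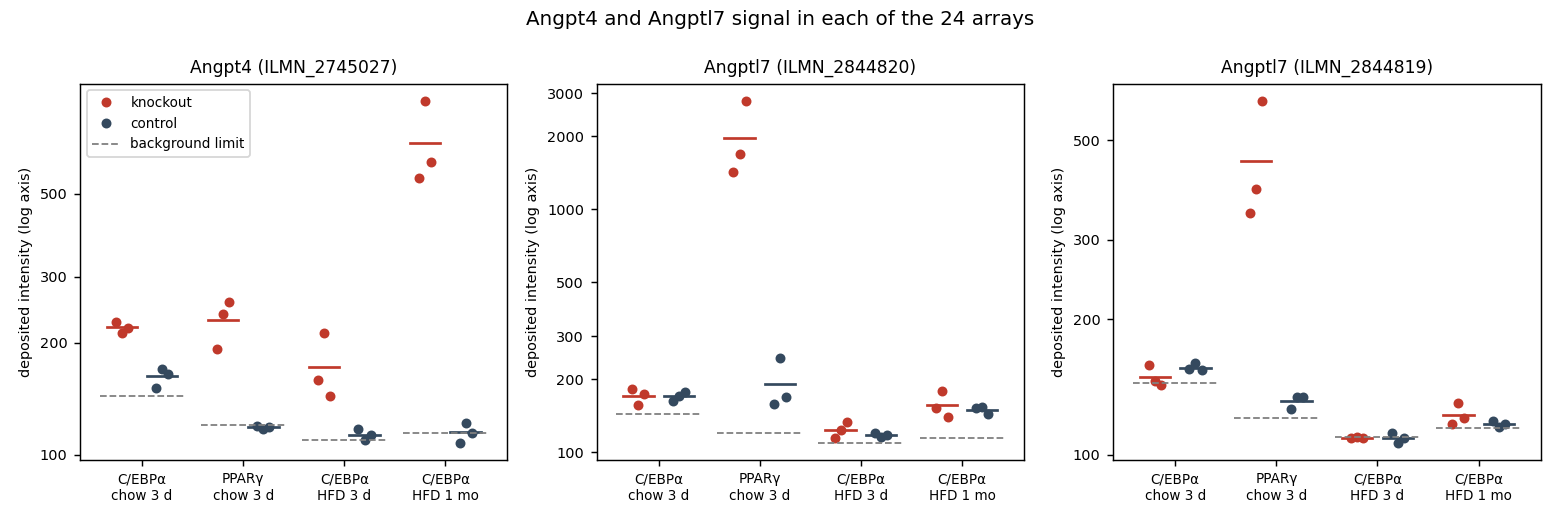
Deposited intensity (log axis) of the Angpt4 probe and both Angptl7 probes on each of the 24 arrays, by set, with knockout arrays left of their controls; points are arrays, solid bars group means and dashed lines the background limit of the set. Angpt4 knockout points lie above control points in all 4 sets, and Angptl7 knockout points stand clear of controls in the PPARγ set.

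The Angpt4 log2 fold change was 1.19 ± 0.25 for C/EBPα loss on chow, 2.55 ± 0.25 for PPARγ loss, 1.63 ± 0.25 at 3 days and 4.60 ± 0.25 at 1 month of high fat diet. On a linear scale these are 2.29-fold, 5.88-fold, 3.10-fold and 24.3-fold. The standard error pools the spread of all 8 groups and is not that of each comparison. Group SDs of log2 signal ran from 0.0515 in PPARγ controls to 0.591 in 3 day high fat knockouts. As the PPARγ controls were at background, the value there is best read as at least 5.52-fold higher, the knockout mean set against the dimmest signals above background. Ranked by fold change from the highest of the 30257 probes, Angpt4 stood at 9 for C/EBPα loss on chow, 5 at 3 days and 1 at 1 month of high fat diet. The size rests on the removal of background: the ratio of deposited intensities, knockout over control, was 1.36 for C/EBPα loss on chow, 1.94 for PPARγ loss, 1.52 at 3 days and 5.94 at 1 month. The chow call was lost without control replicate 1 (log2 fold change 1.01 ± 0.27), without knockout replicate 1 (1.14 ± 0.29) and without knockout replicate 3 (1.20 ± 0.29), and under 6 other settings. At 3 days the call was lost when the 6 arrays of the set were fitted alone, at the same fold change (1.63 ± 0.27).

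Between sets, the 1 month high fat log2 fold change of Angpt4 exceeded that at 3 days by 2.97 ± 0.36, past the threshold, as were 0.459% of all probes in that direction. The 2 sets differ in time on diet, in age and in the size of the Cebpa fall, so these cannot be told apart. For the Cebpa probe the difference, 1 month minus 3 days, was -1.4 ± 0.2 (limma adjusted p = 6.86e-04). The fitted PPARγ log2 fold change exceeded the chow C/EBPα one by 1.36 ± 0.36, a value that takes the PPARγ controls, all at background, at their fitted signal. It fell short of the threshold under 6 of 11 other settings (down to 0.50 without background correction) and without any 1 of 10 of the 12 arrays, with values from 1.21 ± 0.37 (without PPARγ knockout replicate 3) to 1.41 ± 0.39 (without chow C/EBPα knockout replicate 1). High fat diet at 3 days and chow differed by 0.44 ± 0.36, short of the threshold. Ordered by mean background-corrected intensity, the knockout groups came first: 1 month at 574.7 ± 180 (SD), PPARγ at 116 ± 33.4, chow C/EBPα at 87.4 ± 7.49 and 3 days at 68.0 ± 36.2. The controls followed at 29.8 ± 9.62 in the chow C/EBPα set, 9.74 ± 3.61 at 3 days, 8.05 ± 5.50 at 1 month and 5.93 ± 0.776 in the PPARγ set. Neighbouring groups overlapped among the PPARγ, chow and 3 day knockouts, and again among the last 3 control groups; the sets were normalized separately, so this order is only a description.

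Angptl7, the secreted protein known from the eye, was brighter in PPARγ knockouts than in controls on both of its probes, and was dim, with overlapping groups, in all 3 C/EBPα sets. In the PPARγ set the brighter probe, ILMN_2844820, read 1428, 1689 and 2796 in knockouts, against 157, 245 and 169 in controls. The dimmer probe, ILMN_2844819, read 344, 390 and 612 in the same knockouts, against 126, 135 and 134 in controls. Knockout replicate 3 was the brightest on both probes, and no knockout array overlapped a control array. The log2 fold change was 4.38 ± 0.29 (20.8-fold) on ILMN_2844820 and 3.30 ± 0.20 (9.84-fold) on ILMN_2844819, which placed the 2 probes at 2 and 3 from the highest of 30257. Without background removal the ratios were 10.3 and 3.41.

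In the C/EBPα sets ILMN_2844820 of Angptl7 read 181, 156 and 173 in chow knockouts, against 163, 171 and 177 in controls. At 3 days of high fat diet it read 114, 123 and 134 in knockouts, against 119, 116 and 118 in controls, and at 1 month 151, 178 and 139, against 152, 153 and 144 in controls. The groups overlapped in all 3 sets. Log2 fold changes of this probe were -0.02 ± 0.29, 0.24 ± 0.29 and 0.11 ± 0.29, none past the threshold. ILMN_2844819 gave -0.29 ± 0.20 on chow and 0.27 ± 0.20 at 1 month; at 3 days it was at background in all 3 knockouts and in 2 of 3 controls. The PPARγ log2 fold change exceeded the chow C/EBPα one by 4.40 ± 0.41 on ILMN_2844820 and by 3.59 ± 0.29 on ILMN_2844819, both past the threshold, as were 0.737% of all probes in that direction. By mean background-corrected intensity, the PPARγ knockouts (1858 ± 726) stood apart from the other 7 groups, which ranged from 14.0 ± 1.96 in 3 day high fat controls to 77.1 ± 47.8 in PPARγ controls.

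Angptl4, the inhibitor of lipoprotein lipase, was bright on probe ILMN_2759365 in all 8 groups, and no comparison passed the threshold. PPARγ knockouts read 8422, 7188 and 7818, against 5731, 6327 and 6521 in controls, without overlap. Chow C/EBPα knockouts read 9445, 10610 and 10648, against 9547, 7690.3 and 8622 in controls, with overlap at replicate 1 of each group. At 3 days of high fat diet the values were 8523, 8573 and 8499 in knockouts, against 7869.8, 7656 and 6707 in controls, again without overlap. At 1 month they were 10494, 10112 and 13161 in knockouts, against 11681, 10753 and 10533 in controls. On this probe the knockout mean was the higher one in all 4 sets. The share of all probes whose groups do not overlap was not counted, so nothing is read from the lack of overlap.

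The log2 fold changes of this Angptl4 probe were 0.34 ± 0.11 in the PPARγ knockout, 0.25 ± 0.11 on chow and 0.21 ± 0.11 at 3 days of high fat diet in C/EBPα knockouts, and 0.03 ± 0.11 at 1 month. The PPARγ value of 1.26-fold passed the threshold under 6 of 11 alternative settings. It passed in none of the 6 fits with a single array left out. The second Angptl4 probe, ILMN_2424627, was dim, at 109.4 to 181 over all arrays, and gave -0.02 ± 0.14 in the PPARγ knockout, 0.12 ± 0.14 on chow, -0.10 ± 0.14 at 3 days and -0.35 ± 0.14 at 1 month. It passed at 1 month only without control replicate 2 (-0.49 ± 0.15). The 2 probes had opposite signs in the PPARγ set and in both high fat sets.

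**Figure D2:**
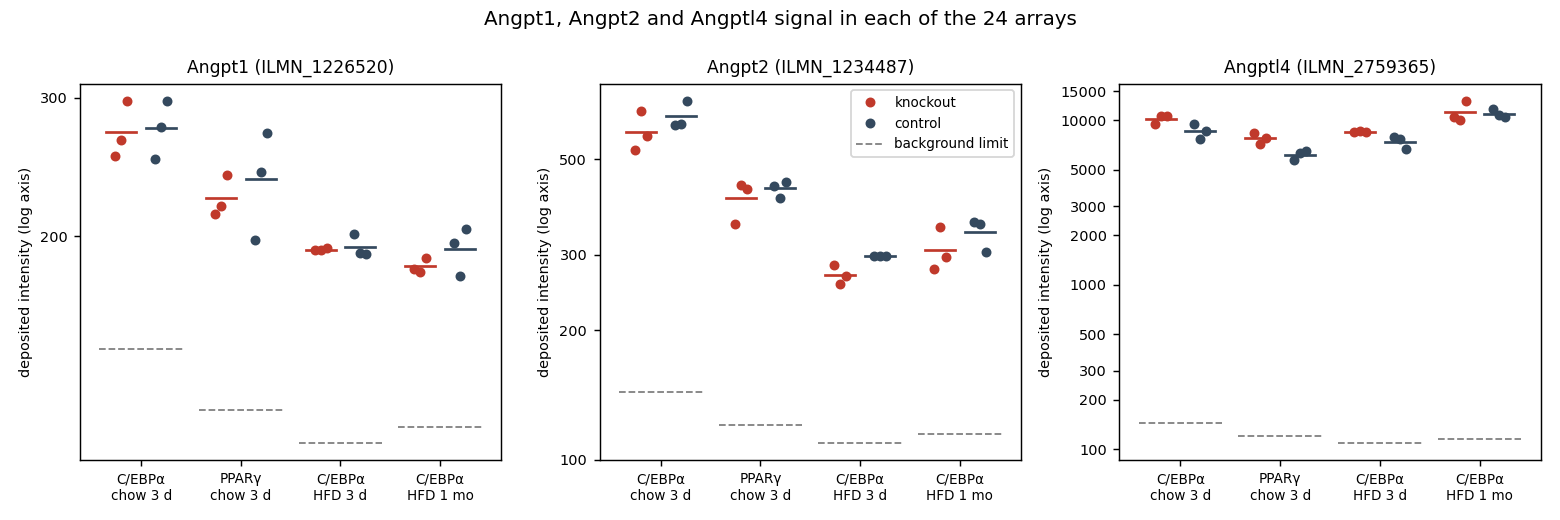
Deposited intensity (log axis) of the brightest probe of Angpt1, Angpt2 and Angptl4 on each of the 24 arrays, by set, knockout left of control; points are arrays, solid bars group means and dashed lines the background limit. Knockout and control points overlap in all 4 sets for Angpt1 and in 3 of 4 for Angpt2, and Angptl4 knockout points lie above control points in the PPARγ set and at 3 days of high fat diet.

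Angpt2, the context-dependent Tie2 ligand, had small negative fold changes on its brighter probe in all 4 comparisons, none of which passed the threshold. ILMN_1234487 read 527, 649 and 566 in chow C/EBPα knockouts, against 602, 605 and 685 in controls. PPARγ knockouts read 354, 437 and 427, against 433, 408 and 444 in controls. At 3 days of high fat diet knockouts read 284, 256 and 268, against 298, 298 and 298 in controls, which was the only set without overlap. At 1 month the readings were 278, 348 and 297 in knockouts, against 357, 355 and 304 in controls. The log2 fold changes were -0.15, -0.11, -0.21 and -0.20 in that order, each ± 0.13. The second probe of Angpt2, ILMN_2642165, was at background in at least 2 of 3 arrays of 7 of the 8 groups. In the chow C/EBPα set it read 134, 142 and 136 in knockouts, all at background, against 143, 160.1 and 152 in controls, 2 of them above it. That makes it at least 1.23-fold lower in the knockouts, with a log2 fold change of -0.53 ± 0.13 just short of the threshold. Of 6 fits with a single array left out, it passed in 2. These were without control replicate 1 (-0.71 ± 0.12) and without knockout replicate 2 (-0.62 ± 0.15), and the value nearest to no change was -0.375. It passed under 2 of 9 other settings, and without background correction it shrank to -0.139 ± 0.046.

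Angpt1, the Tie2 agonist that steadies vessels, showed no difference larger than the spread between arrays on its 1 measurable probe. ILMN_1226520 read 253, 265 and 297 in chow C/EBPα knockouts, against 251, 276 and 297 in controls, and 213, 218 and 239 in PPARγ knockouts, against 198, 241 and 270.4 in controls. On high fat diet it read 192, 192 and 193 in 3 day knockouts, against 202, 190.4 and 190.2 in controls, and 182, 180.4 and 188 in 1 month knockouts, against 196, 178 and 205 in controls. The groups overlapped in every set. Log2 fold changes were -0.03 ± 0.16 on chow, -0.11 ± 0.16 in the PPARγ knockout, -0.02 ± 0.16 at 3 days and -0.14 ± 0.16 at 1 month. The other 2 Angpt1 probes, ILMN_1230114 and ILMN_2606451, were at background on all 24 arrays.

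Of the rest of the family, Angptl1, Angptl6 and Angptl8 were tested. One passed in each direction at 1 month of high fat diet, and none in the other comparisons, where 1 to 2 of the 3 had an unadjusted p under 0.05. Over all 14544 genes, 8.56% were called higher and 7.79% lower at 1 month. Angptl1 read 1186, 1397 and 1307 in 1 month knockouts, against 615, 652 and 819 in controls, a log2 fold change of 1.01 ± 0.14 (limma adjusted p = 1.68e-05). Its fold changes on chow (0.31 ± 0.14) and at 3 days of high fat diet (0.30 ± 0.14) did not pass, and the difference between 1 month and 3 days, 0.71 ± 0.19, did not pass either (limma adjusted p = 0.0819). Angptl8, an insulin-responsive gene whose product takes part in the inhibition of lipoprotein lipase, read 230.5, 197 and 176 in 1 month knockouts, against 474, 543 and 652 in controls. It was lower there by a log2 fold change of -2.10 ± 0.39 (limma adjusted p = 6.29e-04). Its values in the other comparisons were -0.83 on chow, -0.62 in the PPARγ knockout and -0.94 at 3 days, each ± 0.39 and none past the threshold; the difference between 1 month and 3 days was -1.16 ± 0.55 (limma adjusted p = 0.461).

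**Figure D3:**
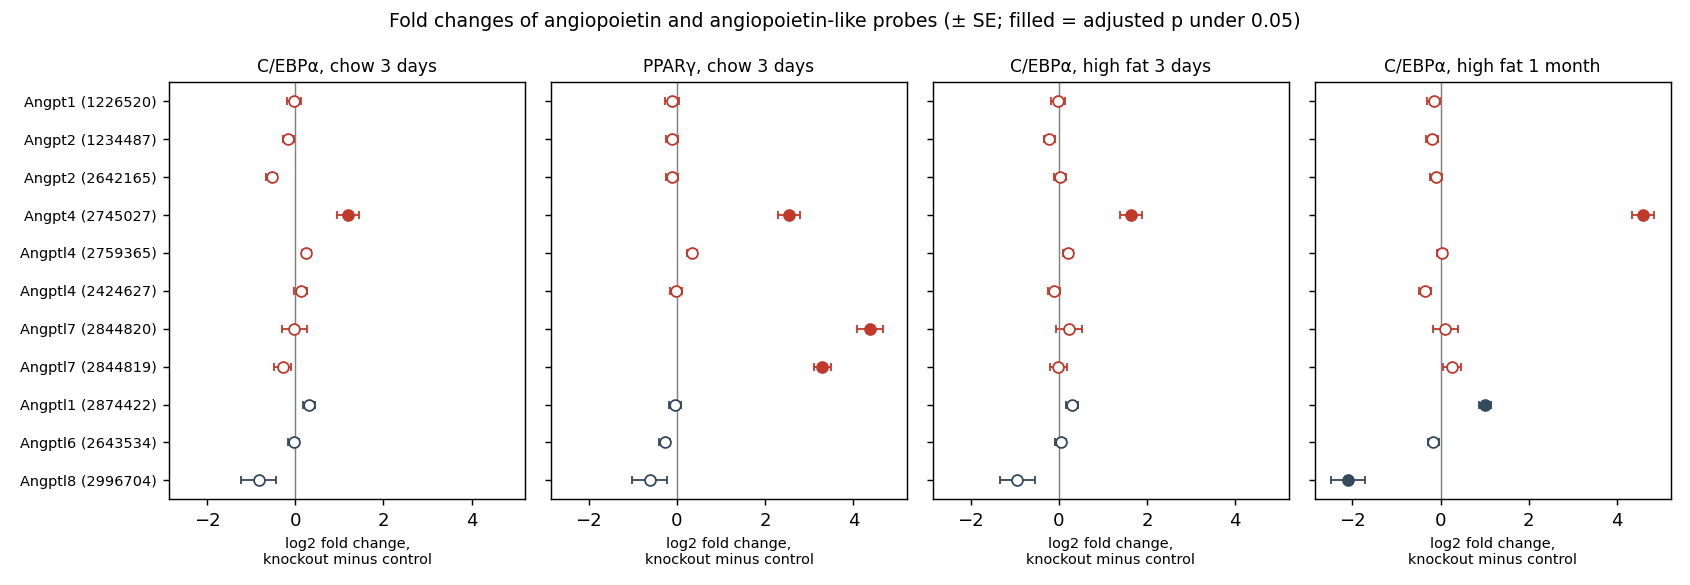
Log2 fold change, knockout minus control, ± standard error for the 8 tested member probes (red) and for Angptl1, Angptl6 and Angptl8 (dark blue) in the 4 comparisons; filled symbols passed an adjusted p under 0.05. Angpt4 is filled in all 4 panels, both Angptl7 probes in the PPARγ panel, and Angptl1 and Angptl8 at 1 month of high fat diet.

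Of the angiopoietin receptors and partners, 10 of 11 genes were tested, and at most 1 moved in either direction in any comparison. Over all 14544 genes, 0.474% were called higher and 0.447% lower on chow, and 3.95% and 4.02% in the PPARγ knockout. At 3 days of high fat diet these shares were 0.578% and 1.28%, and at 1 month 8.56% and 7.79%. Tek, which encodes Tie2, had log2 fold changes of 0.16 on chow, -0.06 in the PPARγ knockout, -0.07 at 3 days and 0.10 at 1 month of high fat diet, each ± 0.10 and none past the threshold. Tie1, the companion receptor, fell at 1 month by 0.65 ± 0.14 on the log2 scale (limma adjusted p = 0.00281). Dok2, an adaptor that binds active Tie2 and is also found in blood cells, rose there by 0.73 ± 0.13 (limma adjusted p = 3.40e-04). In the PPARγ knockout the integrin gene Itga5 rose by 0.41 ± 0.09 (limma adjusted p = 0.00931), a call lost without control replicate 1 (0.32 ± 0.10) and without knockout replicate 2 (0.35 ± 0.10). In the chow C/EBPα knockout the integrin gene Itgb3 was at background in all 3 knockouts and at least 1.43-fold lower than in controls (limma adjusted p = 0.0254). That call was lost without control replicate 2 or 3 or knockout replicate 2 or 3, at log2 fold changes from -0.72 to -0.47. None passed at 3 days of high fat diet, where 2 of the 10 had an unadjusted p under 0.05. The list medians were 0.098, 0.011, -0.042 and 0.021 in the chow, PPARγ, 3 day and 1 month comparisons, beside medians over all 14544 genes of 0.0052, 0.013, 0.0050 and 0.010.

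Around Angptl4, the list of the lipoprotein lipase system had 17 of 20 genes tested. None passed in the chow C/EBPα knockout (5 at an unadjusted p under 0.05), 1 rose and 1 fell in the PPARγ knockout, 3 fell at 3 days, and 1 rose and 5 fell at 1 month of high fat diet. With single arrays left out, 0 to 3 fell at 3 days and 3 to 5 at 1 month. Over all 14544 genes, 3.95% were called higher and 4.02% lower in the PPARγ knockout. The shares were 0.578% and 1.28% at 3 days, and 8.56% and 7.79% at 1 month. For Lpl, the lipase itself, the brighter probe, ILMN_2692723, had log2 fold changes from -0.16 ± 0.07 at 3 days to 0.02 ± 0.07 in the PPARγ knockout. Its group means were 30070 to 38960, and normalized values recurred between groups, such as a highest value of 38480 in both chow C/EBPα groups. Whether normalization within sets narrowed its differences and standard errors was not tested. The dimmer Lpl probe, ILMN_2585447, ranged from -0.55 ± 0.25 at 1 month to 0.27 ± 0.25 on chow; neither probe passed the threshold in any comparison. Gpihbp1, which carries the lipase to the vessel lumen, fell at 1 month by 0.64 ± 0.13 (limma adjusted p = 0.00177), and Apoc1, a lipoprotein component, had a log2 fold change of -1.25 ± 0.12 (limma adjusted p = 2.29e-07). Apoc1 was called lower at 3 days as well (-0.571 ± 0.12, limma adjusted p = 0.0147). Apoc3, whose product restrains triglyceride clearance, fell by 1.11 ± 0.22 in the PPARγ knockout (limma adjusted p = 0.00302). It was also called lower at 3 days (-1.07 ± 0.22, limma adjusted p = 0.0118) and at 1 month (-0.886 ± 0.22, limma adjusted p = 0.00814). Only 1 of its 3 knockout arrays at 1 month was above background. The list medians were -0.016, -0.087, -0.17 and -0.037 in the same order of comparisons. Of 11 genes that fatty acids induce through PPARs, as they do Angptl4, none passed on chow or at 3 days in C/EBPα knockouts (2 and 1 at an unadjusted p under 0.05), 1 rose and 1 fell in the PPARγ knockout, and 1 fell at 1 month. That 1 was Fgf21, a fasting hormone (-0.83 ± 0.19, limma adjusted p = 0.00482). The medians of the list were 0.076, -0.019, -0.12 and 0.19.

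In the VEGF family, the other main set of endothelial growth factors and receptors, 1 of 10 genes rose and 2 fell in the PPARγ knockout, and 1 rose and 3 fell at 1 month of high fat diet. With single arrays left out, 1 fell in the PPARγ knockout and 2 to 3 at 1 month. Over all 14544 genes, 3.95% were called higher and 4.02% lower in the PPARγ knockout, and 8.56% and 7.79% at 1 month. Vegfb fell by 0.89 ± 0.11 in the PPARγ knockout (limma adjusted p = 2.09e-05) and by 0.70 ± 0.11 at 1 month (limma adjusted p = 1.18e-04). Vegfa, the principal endothelial mitogen, had log2 fold changes of -0.475 ± 0.14 in the PPARγ knockout (limma adjusted p = 0.0442) and -0.68 ± 0.14 at 1 month (limma adjusted p = 0.00167). Its second tested probe, ILMN_3121255, gave -0.614 ± 0.14 and -0.911 ± 0.14 in the same comparisons. None passed in the chow C/EBPα knockout or at 3 days, with 2 of 10 at an unadjusted p under 0.05 in each, and the medians were -0.011, 0.064, -0.026 and -0.071. Among 14 hypoxia response genes, a group that includes Vegfa, 3 fell in the PPARγ knockout and 1 rose and 2 fell at 1 month; 2 had an unadjusted p under 0.05 on chow and 2 at 3 days. With single arrays left out, 1 to 3 fell in the PPARγ knockout and 1 at 1 month. Pdk1, which limits pyruvate entry into mitochondria, fell by 0.75 ± 0.12 in the PPARγ knockout (limma adjusted p = 5.14e-04). Medians were -0.035, -0.17, -0.031 and -0.11.

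**Figure D4:**
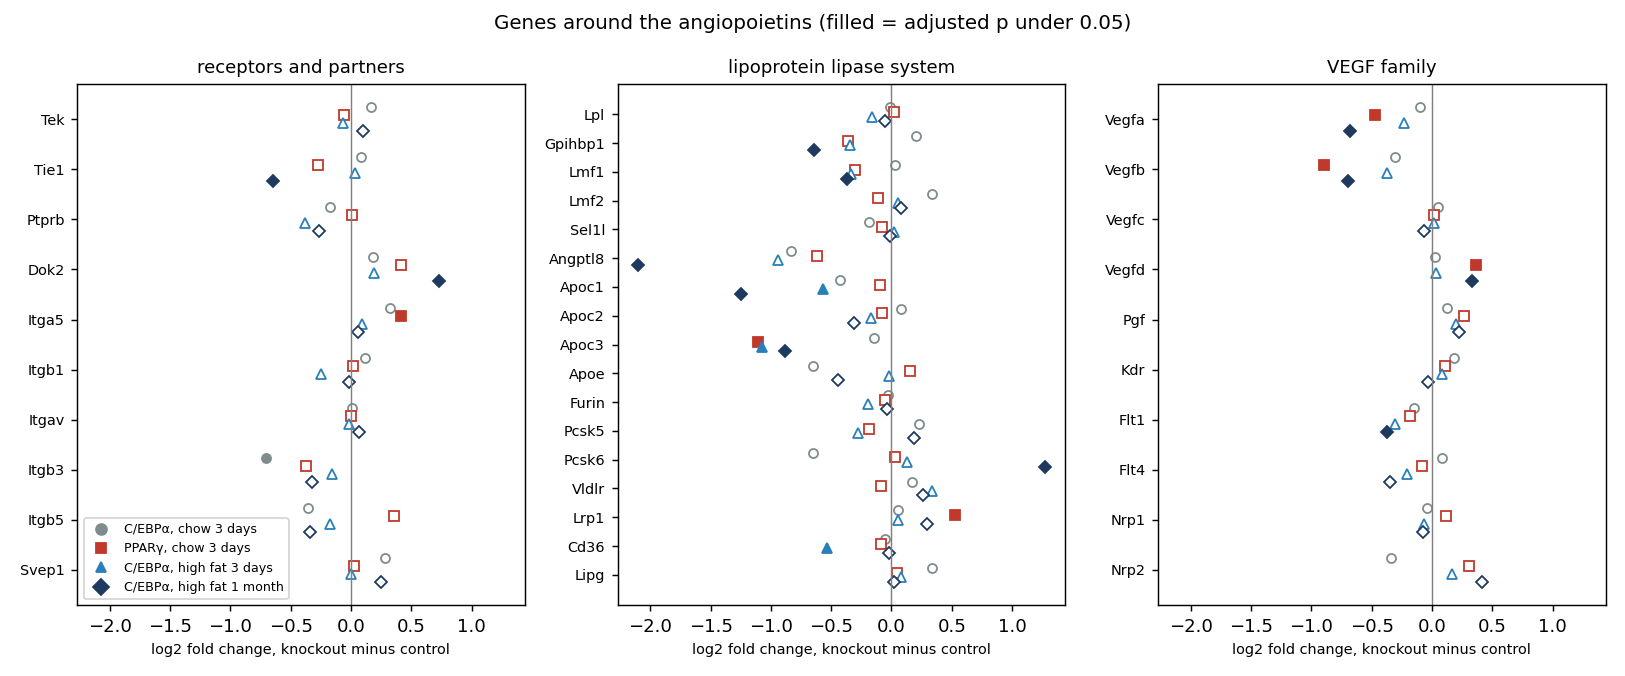
Log2 fold change, knockout minus control, of the brightest probe of each tested gene of the receptor and partner list, the lipoprotein lipase system and the VEGF family; 1 symbol per comparison, filled where the adjusted p was under 0.05. Tek and Lpl have unfilled symbols in all 4 comparisons, and most filled symbols belong to the PPARγ or the 1 month comparison.

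Glucocorticoid response genes, a further class to which Angptl4 belongs as a textbook target, rose in the PPARγ knockout in 6 of 12 cases, with none lower, beside 3.95% of all 14544 genes higher. The count was 4 to 6 with single arrays left out, and 4 without control replicate 1 or 2 or knockout replicate 1 or 2. Errfi1, an inhibitor of the EGF receptor, rose by 1.48 ± 0.18 (limma adjusted p = 1.36e-05), and Fkbp5, a co-chaperone of the glucocorticoid receptor, by 0.95 ± 0.19 (limma adjusted p = 0.00356). Tsc22d3, which encodes the glucocorticoid-induced leucine zipper, rose by 0.64 ± 0.14 (limma adjusted p = 0.00492), a call lost when the 6 arrays of the PPARγ set were fitted alone. In C/EBPα knockouts none passed on chow (1 at an unadjusted p under 0.05), 2 rose at 3 days, and 1 rose and 1 fell at 1 month. Of all genes, 0.578% were called higher at 3 days, and 8.56% higher and 7.79% lower at 1 month. The medians of the list were 0.13, 0.49, 0.15 and 0.011. The difference between comparisons was not tested for these genes.

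Cell type markers moved mainly in the 1 month and PPARγ comparisons, in which more of all genes were called too. Over all 14544 genes, 8.56% were called higher and 7.79% lower at 1 month, and 3.95% and 4.02% in the PPARγ knockout. At 1 month of high fat diet 9 of 10 adipocyte markers fell and 1, Cidea, rose; their summed background-corrected intensity was 64210 to 74130 in knockouts, against 91610 to 99810 in controls. Retn, which encodes resistin, was at background in all 3 knockouts, at least 6.25-fold lower than in controls. Of 9 macrophage markers, 8 rose (sums of 18830 to 25640 in knockouts, against 11990 to 12850 in controls), and of 8 stromal markers 5 rose (43140 to 48870 in knockouts, against 30410 to 35910 in controls). Of 13 endothelial markers 6 fell, Tie1 and Flt1 among them, with sums of 10420 to 12270 in knockouts, against 14740 to 16220 in controls. In the PPARγ knockout 7 of 10 adipocyte markers fell (57470 to 59230 in knockouts, against 77640 to 85010 in controls), 3 of 9 macrophage markers rose (15770 to 18530 in knockouts, against 12710 to 14180 in controls) and 2 of 8 stromal markers rose (41250 to 47080 in knockouts, against 35180 to 39790 in controls). With single arrays left out, 7 to 9 adipocyte markers fell there, and 1 to 3 macrophage (1 without control replicate 1) and 0 to 2 stromal markers rose (0 without control replicate 2). At 1 month 7 to 9 adipocyte and 4 to 9 endothelial markers fell, and 6 to 8 macrophage and 4 to 6 stromal markers rose. No endothelial marker passed in the PPARγ knockout, and none had an unadjusted p under 0.05.

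In the other comparisons, in which fewer of all probes were called too, 1 of 10 adipocyte and 1 of 13 endothelial markers fell on chow, and 3 adipocyte markers fell and 1 macrophage marker rose at 3 days. No stromal marker passed in either, with 2 and 3 at an unadjusted p under 0.05. The endothelial marker that fell on chow was at background in all 3 knockouts and at least 1.14-fold lower than in controls. Its call was lost in 4 of 6 fits with a single array left out and under 6 of 11 other settings. Over all 14544 genes, 0.474% were called higher and 0.447% lower on chow, and 0.578% and 1.28% at 3 days. Macrophage sums were 19640 to 21500 in chow C/EBPα knockouts, against 16580 to 20810 in controls, and 12780 to 16740 at 3 days in knockouts, against 10920 to 14900 in controls. All 10 adipocyte markers tested were above background in every control group, as the tissue label requires. Of the other lists, lymphatic markers rose in 3 of 5 cases in the PPARγ knockout and in 2 of 5 at 1 month, and pericyte and smooth muscle markers moved in 4 of 10 cases (1 higher) and 2 of 10 (1 higher). Beside these stand 3.95% higher and 4.02% lower of all 14544 genes in the PPARγ knockout, and 8.56% and 7.79% at 1 month. In the PPARγ knockout, single arrays left out took the lymphatic count to 0 to 2 (0 without control replicate 1 or 2 or knockout replicate 2) and the pericyte and smooth muscle counts to 0 to 1 higher and 1 to 2 lower. Neutrophil markers moved in 1 of 6 (higher) and 3 of 6 cases (1 higher) in the PPARγ and 1 month comparisons, and 1 of 3 nerve markers rose on chow and 1 at 1 month. The neutrophil marker called in the PPARγ comparison was at background in all 3 controls and at least 1.88-fold higher in knockouts. No lymphocyte, epithelial or skeletal muscle marker passed in any comparison. At an unadjusted p under 0.05 there were 2 of 5 epithelial markers on chow and 1 in the PPARγ knockout. Skeletal muscle log2 fold changes had standard errors of 0.77 to 1.11, so only large changes could have passed. Muscle sums varied widely within groups, from 3568 to 21710 in PPARγ knockouts and from 8664 to 36410 in their controls. Lymphocyte sums ran from 87.3 to 929.9 in 3 day high fat knockouts. The part of all these cell type markers in the Angpt4 and Angptl7 values was not tested.

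The genes most like each member were ranked by Pearson's r of log2 signal over the 24 arrays, with each set centred on its own mean; the arrays share their sets, and the knockout shift itself enters r. For Angpt4 they were Thbs2, which encodes the matrix protein thrombospondin 2 (r = 0.978), the endocytic adaptor Dab2 (0.940), Pik3ip1 (0.940), the small matrix proteoglycan Ogn (0.938) and the noncoding RNA Dnm3os (0.934). Thbs2 had log2 fold changes of 0.45 on chow, 1.13 in the PPARγ knockout, 0.76 at 3 days and 1.73 at 1 month, the same order of comparisons as Angpt4. For Angptl7 the nearest were Smim41 (0.924), Dynlrb2 (0.898), the matrix protein gene Adamtsl2 (0.890), the cytochrome P450 Cyp4f14 (0.883) and the mitochondrial carrier Slc25a30 (0.880). Adamtsl2 had log2 fold changes of 0.39 on chow, 4.61 in the PPARγ knockout, 0.98 at 3 days and 1.66 at 1 month, so that its high fat values lay above those of Angptl7. Cyp4f14 had 0.0077, 3.14, -0.12 and -0.57 in the same order. For Angptl4 the values were lower: Arnt, the partner of the hypoxia factors (0.840), Mycl (0.793), Sgo2a (0.771), Stx7 (0.765) and Gstt1 (0.754). Between members, r ran from -0.421 (Angpt2 with Angpt4) to 0.491 (Angptl4 with Angptl7).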

How the data were processed

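Per the labels' protocols, subcutaneous adipose RNA was turned into biotin-labelled cRNA for Illumina arrays. The deposited table holds linear intensity values; from the values, the authors quantile-normalized them within each of 4 sets of 6 arrays and subtracted no background. Normalization software is not given in the sources used here. The 96 columns of the other table, which holds unnormalized signals, match no sample by name and stayed out. Arrays within groups correlated at a median r of 0.9929 over probes, and the number of arrays limits the precision.

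Here, the background of each set was taken at the peak of its log2 intensities and its SD from the values below it. Signals were corrected with limma's normexp, 16 was added and log2 taken. Probes above background on at least 3 arrays went into limma (version 3.58.1; R version 4.3.3; lmFit on 8 group means over 24 arrays, eBayes, two-sided, Benjamini-Hochberg), a script tested on simulated data. Lists use the brightest probe per gene, with its probe-level p. A bound sets a group against the lowest signal above background on the dim arrays. Members and the 18 gene lists were chosen with earlier results of these data known, and lists are described by counts and medians. The naming rule took all members, Cebpa and Pparg, up to 4 called genes per list and comparison with the smallest adjusted p (a choice of these is printed; Tek and Lpl, not called, and Cidea, Retn and Flt1 were added), and the 5 genes most like Angpt4, Angptl7 and Angptl4. Symbols come from the platform annotation, updated through RefSeq (GRCm38.p6), which gives 1 symbol to 34885 probes. One gene of the lists is not reported here. Alternatives covered the background, offset, normalization, filter, probe choice, weights, arrays in the fit, replicate block and each array left out.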

Additional observations from a re-analysis of the deposited data

Results flagged for a closer look

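Knockout effects differed between sets, past the threshold of limma's interaction contrast, for 2 genes. The genes were chosen from these same knockout and control contrasts, so the differences are a description and lend no support. The Angpt4 log2 fold change was 2.97 ± 0.36 larger at 1 month than at 3 days of high fat diet in C/EBPα knockouts (4.60 and 1.63). It was 1.36 ± 0.36 larger in PPARγ than in chow C/EBPα knockouts (2.55 and 1.19), where the PPARγ controls were at background; this difference missed the threshold under 6 of 11 other settings and without 10 of 12 single arrays, each in turn. The Angptl7 log2 fold change was larger in PPARγ than in chow C/EBPα knockouts, by 4.40 ± 0.41 on ILMN_2844820 and by 3.59 ± 0.29 on ILMN_2844819.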

How the results depend on the processing

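Of 619 values of the member probes under alternatives, 26 lost a call, all of Angpt4, 11 gained one and 3 moved by more than the spread between replicates. The other 579 stayed on their side of the threshold; 19 of them, all of uncalled values of at most 0.12 in size, changed sign. No called value changed sign. Of 1734 values of called list genes, 235 lost the call and 0 reversed. The number of probes called changed more. In the chow C/EBPα comparison 261 were called, against 466 without background correction, 673 with an offset of 50, 79 with quantile normalization over all arrays, 399 without the filter, 157 with 1 probe per gene, 40 with array weights, 33 with precision weights and 1 in a fit of the 6 arrays alone (188 to 303 without single arrays). In the PPARγ comparison 1925 were called, 2904 with array weights, and 1016 (control replicate 2) to 1551 without single arrays. At 3 days of high fat diet the 423 calls became 820 with array weights, 84 in the set alone and 206 (knockout replicate 3) to 527 without single arrays. At 1 month the 3999 calls became 2636 with 1 probe per gene and 2713 to 3654 without single arrays. For the difference between PPARγ and chow C/EBPα effects, 607 calls became 946 without background correction, 936 with an offset of 50, 391 with array weights, 313 with precision weights, 232 in the 2 sets alone and 252 (PPARγ control replicate 2) to 600 without single arrays. For 1 month minus 3 days, 348 became 562 without background correction, 568 with array weights, 170 in the 2 sets alone and 175 (3 day knockout replicate 2) to 362 without single arrays. For 3 days minus chow, limma called 0 (3142 at an unadjusted p under 0.05), 9 without background correction, 10 with 1 probe per gene, 31 with eBayes trend and robust options, and 0 to 35 (3 day knockout replicate 2) without single arrays. The cause of these shifts was not tested.

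Groups share replicate numbers, but same-numbered arrays of knockout and control did not deviate together (0 of 12 pairs with r over 0.1, from -0.218 to 0.0657; 1 of 12 arrays correlated best with its own number). With the replicate number as a block, 65 probes were called in the chow C/EBPα comparison, 255 at 3 days of high fat diet, 277 for the PPARγ minus chow difference and 195 for 1 month minus 3 days; the Angpt4 log2 fold change on chow, 1.19 ± 0.23, then missed the threshold. Signals close to background limit what can be said of Angpt4 in controls, Angptl7 in the C/EBPα sets, and the dim probes of Angpt1, Angpt2 and Angptl4.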
